A study of Mus musculus with 4 samples.

Results

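The genes described here carry glucose into the cell, break it down to pyruvate, and pass pyruvate on to lactate or to the mitochondrion. They are 32 genes, chosen by name as glucose and lactate transporters, glycolytic enzymes, subunits and kinases of pyruvate dehydrogenase, and the transcription factor gene Hif1a. All 32 were found among the 55401 gene models, in 33 rows, because Aldoa is listed under 2 identifiers, one of which is at 0 in all 4 libraries. Group 2 innate lymphoid cells (ILC2s), lymphocytes without antigen receptors that make type 2 cytokines, were purified from lungs of C57BL/6 mice and cultured for 6 h. One group received IL-33, an alarmin that activates these cells, together with angiotensin II, written Ang II below, the hormone through which the renin-angiotensin system raises blood pressure. The other received IL-33 alone, so both groups carry the IL-33 stimulus and no unstimulated cells were analysed here. Each group has 2 libraries, each made from 500 cells by amplification of cDNA, and the labels do not say whether they come from separate mice or cultures. The IL-33 libraries were so alike that they may be a single library measured again, and a value outside both IL-33 values may then be outside 1 sample only.

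Glycolysis turns a molecule of glucose into pyruvate in the cytosol and yields ATP without oxygen. Its pace is set largely at the uptake of glucose and at the irreversible steps. Those are the phosphorylation of glucose by hexokinase, the phosphofructokinase step and pyruvate kinase. Pyruvate is then either reduced to lactate, which leaves the cell through monocarboxylate transporters, or oxidised to acetyl-CoA by pyruvate dehydrogenase, an enzyme that its kinases switch off by phosphorylation. Activated lymphocytes raise glucose uptake and lactate release, and the hypoxia-inducible factor HIF-1α and Myc are known to drive many genes of the pathway.

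Values are FPKM (fragments scaled by transcript length and by library size), so levels of different genes can be set side by side per length. The files give no counts, and the depth behind each value is unknown. FPKM summed to between 394808 and 426140 in the Ang II libraries, against 430980 and 431014 in the IL-33 libraries. The Ang II libraries differed from each other far more than the IL-33 libraries did. Over the 9215 genes that averaged 1 FPKM or more, log2(FPKM + 1) correlated across genes at r = 0.568 between the Ang II libraries and at r = 0.994 between the IL-33 libraries. Genes are not independent replicates. Counting noise could only be estimated, at a depth inferred from how often low genes are at 0 in just 1 of the IL-33 libraries. For genes of low to middle abundance the typical difference was 12.5 times that estimate in the Ang II pair, and 1.07 times in the IL-33 pair. For more abundant genes it was 24.7 times and 1.26 times. In the tests the mean of the IL-33 libraries was taken as a single sample, and the p-values rest on the spread of the 2 Ang II libraries. They measure only that spread, which may be technical. Of the 13 genes listed as ILC2 markers, 12 were tested, 4 lay above and 1 below both IL-33 values in both Ang II libraries, and Thy1 was at or near 0 in all 4 libraries. Among all tested genes 24.4% lay above and 33.5% below. The 13 markers summed to 2025 and 2150 FPKM with Ang II, against 1814 and 1823 FPKM.

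Transcripts of several other cell types differed with the groups. The share of haemoglobin genes in the FPKM sum was 0.897% and 0.401% with Ang II, against 5.83% and 5.78% with IL-33 alone, and of the 7 tested red blood cell and platelet markers 0 lay above and 5 below both IL-33 values in both Ang II libraries. The 9 genes of that list summed to between 1601 and 3844 FPKM with Ang II, against 24954 and 25156 FPKM. Slc4a1, which red cell precursors make, stayed under 1 FPKM in all libraries. Most tested markers of T cells, macrophages, neutrophils and epithelium were also lower with Ang II. The counts of markers above and below in this paragraph are to be read against 24.4% and 33.5% of all tested genes. Macrophage and monocyte markers (10 genes, 7 tested, 1 higher and 5 lower) summed to between 950.2 and 2034 FPKM, against 2112 and 2148 FPKM, with Itgax at 0 in all libraries. T cell markers (9 genes, 8 tested, 0 higher and 8 lower) summed to between 455 and 926 FPKM, against 1260 and 1263 FPKM, with Cd4 at 0 in both Ang II libraries. Neutrophil markers (6 genes, 3 tested, 0 higher and 3 lower) summed to between 38.9 and 62.2 FPKM, against 201 and 209 FPKM, and epithelial markers (9 genes, 5 tested, 0 higher and 5 lower) to between 80.1 and 201 FPKM, against 374 and 384 FPKM, with Krt8, Krt18 and Sftpb at 0 in all libraries. B cell, NK cell and endothelial markers had 2 tested genes each, with 0 higher and 1 lower in all. B cell markers summed to 92.2 and 3.06 FPKM with Ang II, against 20.8 and 18.5 FPKM, NK cell markers to 0.09 and 13.3 FPKM, against 21.3 and 19.5 FPKM, and endothelial markers to 1.54 and 10.6 FPKM, against 2.90 and 2.52 FPKM. The B cell and endothelial sums lay on both sides of the IL-33 sums. Every cell uses glycolysis, and the part of these cells in the values below was not tested. In bulk samples, fewer cells of a type and less RNA per cell cannot be told apart.

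The glycolytic genes as a whole held nearly the same share of the transcriptome in all 4 libraries. Together the 32 genes summed to 4737 and 4541 FPKM with Ang II, against 4939 and 4941 FPKM with IL-33 alone. That is 1.11% and 1.15% of the FPKM sum, against 1.15% in both IL-33 libraries. The most abundant enzymes of the pathway made up most of it and most stood close together in the groups, while scarcer genes, among them the transporters and the regulatory enzymes, were scattered between the 2 Ang II libraries.

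Of the 32 genes, 26 averaged 1 FPKM or more and were tested. Hk3, Pfkm, Eno2, Eno3, Pdk1 and Pdk2 were not. None of the 26 had an adjusted p under 0.05 (limma with Benjamini-Hochberg adjustment over 9215 genes, two-sided), and neither did any other gene, so that 0% of all tested genes were called. At an unadjusted p under 0.05, 0 of the 26 were higher and 3 lower with Ang II, where 2.79% and 10.8% of all tested genes were. Both Ang II values lay above both IL-33 values for 4 genes, 15.4% of the 26, and below them for 9 genes, 34.6%. Among all tested genes these shares were 24.4% and 33.5%. The median log2 fold change of the 26 genes was -0.35, against -0.00 over all tested genes. It was -0.20 for the first and -0.07 for the second Ang II library alone, each set against the IL-33 mean.

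**Figure D1:**
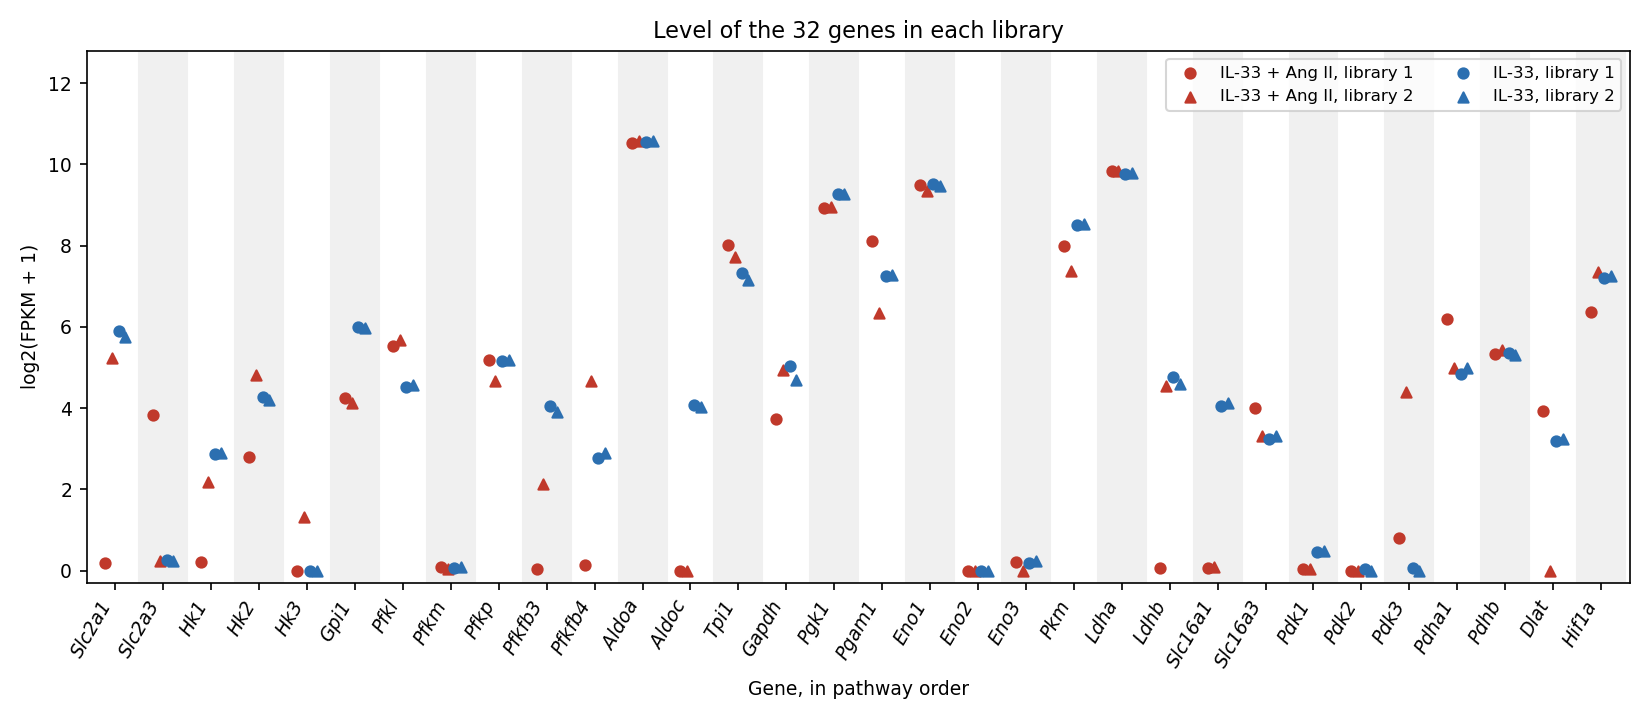
Level of each of the 32 genes, as log2(FPKM + 1), in the IL-33 + Ang II libraries (red) and the IL-33 libraries (blue), with circles for library 1 and triangles for library 2. Genes run in pathway order. Aldoa, Ldha, Eno1 and Pgk1 lie at the top with all 4 points close together, while Slc2a1, Pfkfb4, Ldhb and Dlat are near 0 in 1 Ang II library only.

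Differences between the groups were small among abundant genes. Of the 26 tested genes, 8 had a mean of at least 100 FPKM (Aldoa, Ldha, Eno1, Pgk1, Pkm, Tpi1, Pgam1 and Hif1a), and their median absolute log2 fold change was 0.20. Among all 695 tested genes at that level it was 0.42. The difference stayed under 0.5 on the log2 scale for 6 of the 8 (75%) and for 55.3% of the 695. For Pgam1 and Hif1a, counted among the 6, that mean covers Ang II libraries that lay apart, with log2 differences from the IL-33 mean of 0.86 and -0.91 for Pgam1 and of -0.85 and 0.12 for Hif1a. Below 20 FPKM the order was the other way round, with a median absolute log2 fold change of 1.79 for 11 pathway genes, against 1.58 for all 6593 genes at that level. In the 7 pathway genes between 20 and 100 FPKM it was 0.67, against 0.85 for 1927 genes. These medians describe lists and carry no test.

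**Figure D2:**
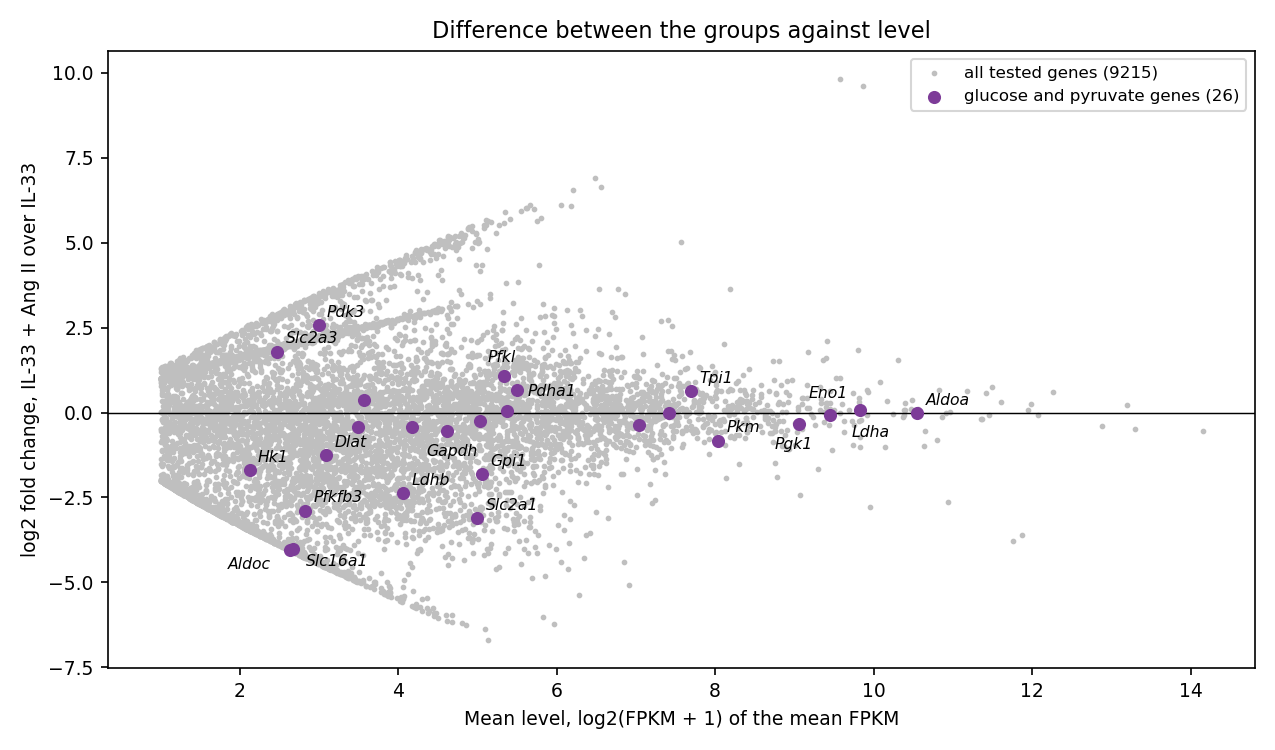
Difference between the groups (y axis, log2 fold change of IL-33 + Ang II over IL-33 on the log2(FPKM + 1) scale) against the mean level (x axis) for all 9215 tested genes in grey and the 26 tested glucose and pyruvate genes in purple. The pathway genes at the right, from Tpi1 to Aldoa, lie between -0.83 and 0.62, while those at the left spread more widely and include Slc16a1 at -4.02.

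Glucose enters by facilitated transport. Slc2a1 (chromosome 4, 119108711 to 119137983, plus strand, mm10), which encodes the basal glucose transporter GLUT1, stood at 0.13 and 36.9 FPKM with Ang II, against 58.5 and 53.0 FPKM with IL-33 alone. Both Ang II values were below both IL-33 values, but the first was near 0 and the second nearer to the IL-33 level (a log2 fold change of -3.12 ± 3.29 SE, limma adjusted p = 0.775). Slc2a3, which encodes the high-affinity transporter GLUT3, went the other way in the same library. It stood at 13.3 FPKM in the first and 0.18 FPKM in the second Ang II library, against 0.20 and 0.17 FPKM. Of the FPKM of Slc2a1 and Slc2a3 alone, Slc2a3 thus made up 99.0% in the first Ang II library, 0.486% in the second, and 0.341% and 0.320% in the IL-33 libraries.

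Hexokinases trap glucose as glucose-6-phosphate. Hk2, the inducible form bound to mitochondria, was at 5.98 and 27.2 FPKM with Ang II, on either side of 18.5 and 17.5 FPKM with IL-33 alone. Hk1, the widely expressed form, stood at 0.15 and 3.55 FPKM, below 6.28 and 6.48 FPKM. Hk2 was the larger share of the step in every library, at 97.6% and 84.3% with Ang II, against 74.6% and 73.0%. Hk3, the form typical of myeloid cells, stayed at or under 1.5 FPKM in all 4 libraries.

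Gpi1 (chromosome 7, 34201330 to 34230336, minus strand), which encodes the isomerase that makes fructose-6-phosphate, stood lower by a similar amount in both Ang II libraries. It was at 18.0 and 16.4 FPKM with Ang II, against 63.2 and 62.1 FPKM with IL-33 alone. The libraries of each group lay close together and the groups did not overlap (a log2 fold change of -1.80 ± 0.36 SE, with a limma p of 0.0463 unadjusted and 0.356 adjusted).

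Phosphofructokinase is the committed step of glycolysis, built from liver, muscle and platelet type subunits. Pfkl (chromosome 10, 77986947 to 78010083, minus strand), the liver type, stood at 45.5 and 50.2 FPKM with Ang II, against 21.97 and 22.6 FPKM with IL-33 alone (a log2 fold change of 1.07 ± 0.33 SE, limma adjusted p = 0.508). Pfkp, the platelet type, was at 35.3 and 24.6 FPKM, against 34.6 and 35.2 FPKM, and overlapped. Pfkm, the muscle type, stayed at or under 0.07 FPKM in all 4 libraries. The liver type therefore held 56.3% and 67.1% of the summed FPKM of the step with Ang II, against 38.8% and 39.1% with IL-33 alone.

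The bifunctional enzymes of the PFKFB family set the level of fructose-2,6-bisphosphate, the strongest activator of phosphofructokinase. Pfkfb3, the form with the highest kinase activity, stood at 0.03 and 3.39 FPKM with Ang II, against 15.7 and 13.9 FPKM with IL-33 alone. Pfkfb4 was at 0.10 and 24.4 FPKM, on both sides of 5.80 and 6.49 FPKM. Pfkfb3 was the minor form with Ang II, at 23.1% and 12.2% of the step, and the major form with IL-33 alone, at 73.0% and 68.1%. The first of the Ang II shares rests on a sum of only 0.13 FPKM.

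**Figure D3:**
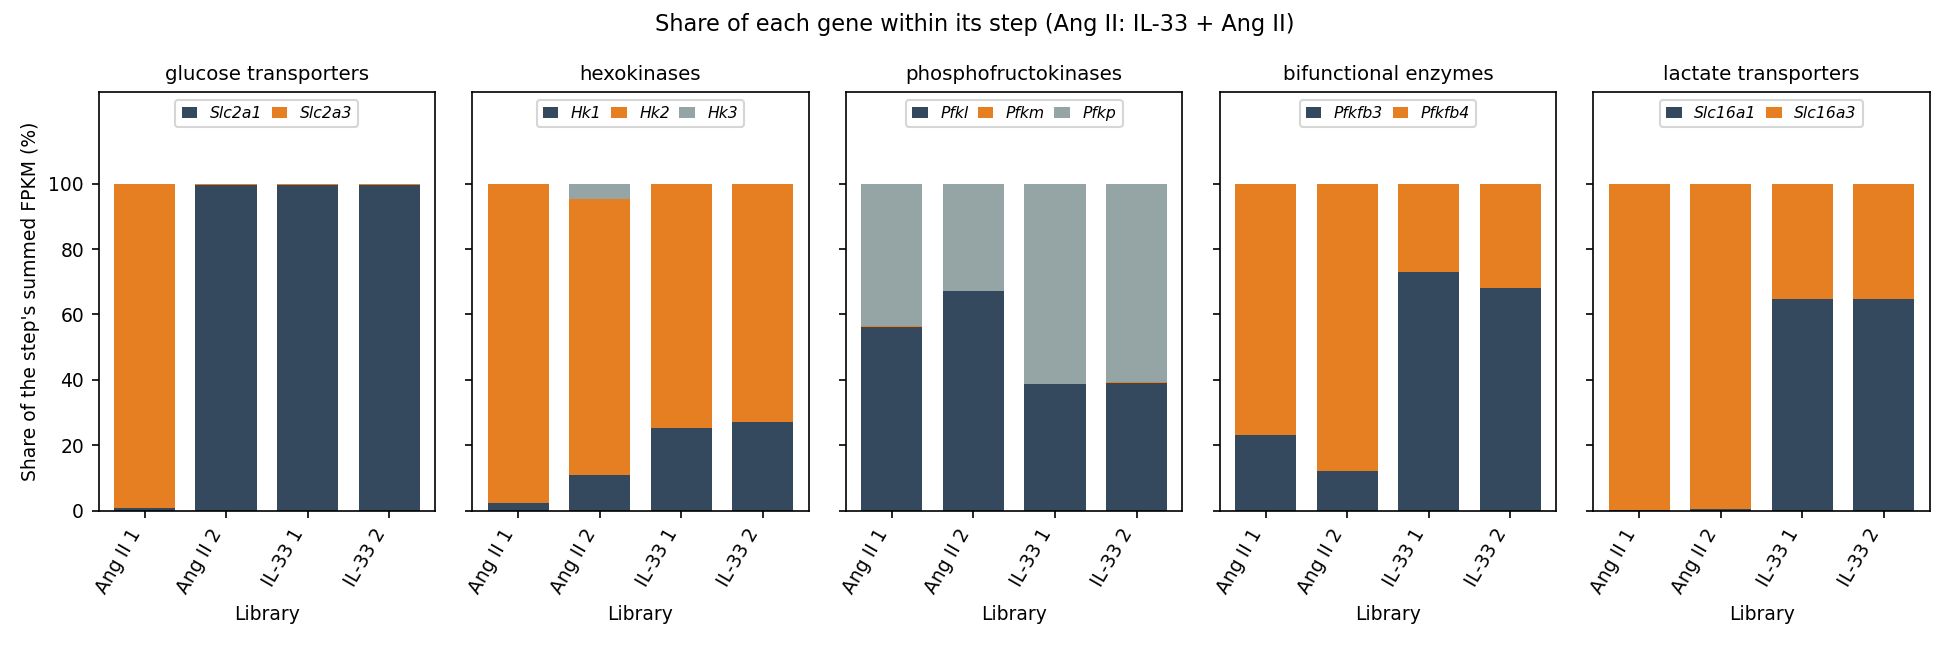
Share of each gene in the summed FPKM of its step, in percent, with 1 bar per library and the IL-33 + Ang II libraries on the left of each panel. Both Ang II libraries hold larger shares of Pfkl, Pfkfb4 and Slc16a3 than the IL-33 libraries, and the first Ang II library alone holds mostly Slc2a3.

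Aldoa, which encodes the aldolase of most tissues, was the most abundant of the 32 genes and ranked 27 among all tested genes. It stood at 1464 and 1521 FPKM with Ang II, against 1509 and 1525 FPKM with IL-33 alone, and the groups overlapped. Aldoc (chromosome 11, 78322968 to 78327781, plus strand), the brain type, had a listed level of 0 in each of the Ang II libraries, against 15.8 and 15.4 FPKM. Its unadjusted p was 0.0125 and its adjusted p 0.174 by limma. Since its Ang II values do not differ, the test borrows its error from other genes, and a listed 0 need not mean absence.

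In the lower arm, from triose phosphates to pyruvate, 1 of 6 tested genes was higher and 2 were lower with Ang II in both libraries, where 24.4% and 33.5% of all tested genes were. Tpi1, which encodes triosephosphate isomerase, stood at 259 and 209 FPKM with Ang II, against 160 and 142 FPKM with IL-33 alone (a log2 fold change of 0.62 ± 0.27 SE, limma adjusted p = 0.676). Pgk1, the gene of the first ATP-yielding kinase, stood at 485 and 495 FPKM, against 616 and 622 FPKM (a log2 fold change of -0.34 ± 0.14 SE, limma adjusted p = 0.668). Pkm, which encodes pyruvate kinase M1 and M2, was at 254 and 166 FPKM, against 362 and 370 FPKM (a log2 fold change of -0.83 ± 0.42 SE, limma adjusted p = 0.760). The groups were separate in each of these genes. The Ang II libraries lay close together for Pgk1 and farther apart for Tpi1 and Pkm.

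Pgam1, the phosphoglycerate mutase gene, had 277 and 80.7 FPKM with Ang II, around 150 and 154 FPKM with IL-33 alone. Eno1, the enolase of most tissues, stood at 724 and 647 FPKM, against 728 and 710 FPKM. Neuronal Eno2 was listed at 0 in all libraries and muscle-type Eno3 stayed at or under 0.18 FPKM.

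Gapdh, often used as a reference gene, was listed at only 12.3 and 29.7 FPKM with Ang II, against 31.8 and 24.7 FPKM with IL-33 alone, far below its neighbours Tpi1 and Pgk1. Other gene models hold nearly the same sequence. A search chosen after these values were seen, with at least 95% identity over at least 60% of the other model, found 88 such models for Gapdh, of which 87 had a value above 0. They summed to 1021 and 755 FPKM with Ang II, against 779 and 777 FPKM. Gapdh and its copies together reached 1033 and 785 FPKM, against 811 and 802 FPKM, and the level listed for Gapdh itself is uncertain, since the authors' quantification could divide reads among them. Eno1 had 4 such models, Eno1b and Gm4735 the largest, which added 498 and 449 FPKM, against 402 and 419 FPKM. For Gpi1, Ldha, Ldhb, Pdhb, Pgk1, Pkm and Tpi1 the copies held little beside the gene. Pgam1-ps2 stood at 2.81 and 17.6 FPKM with Ang II, against 39.5 and 43.4 FPKM.

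At the end of glycolysis, Ldha (chromosome 7, 46841475 to 46855627, plus strand), the lactate dehydrogenase subunit that favours lactate formation, was nearly the same in all 4 libraries. It stood at 920 and 917 FPKM with Ang II, against 869 and 883 FPKM with IL-33 alone. This is a log2 fold change of 0.07 (SE 0.12, adjusted p = 0.824 by limma), which turned to -0.00 after quantile normalization. Ldhb, the heart type, stood at 0.04 and 22.4 FPKM, against 26.2 and 23.0 FPKM (a log2 fold change of -2.38 ± 2.94 SE, limma adjusted p = 0.775), and was no longer lower in both Ang II libraries when each library was scaled to the same sum.

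Lactate leaves the cell through monocarboxylate transporters. Slc16a1 (chromosome 3, 104638668 to 104658462, plus strand), which encodes MCT1, stood at 0.04 and 0.06 FPKM with Ang II, against 15.5 and 16.6 FPKM with IL-33 alone (a log2 fold change of -4.02 ± 0.42 SE, with a limma p of 0.0142 unadjusted and 0.174 adjusted). Its Ang II values are both near 0 and barely differ, so the SE rests mostly on error borrowed from other genes. Slc16a1 and Aldoc passed the filter on the mean only through the IL-33 libraries. Slc16a3, which encodes MCT4, a transporter suited to lactate export, was at 15.0 and 8.96 FPKM, against 8.48 and 8.98 FPKM, and overlapped. MCT4 made up 99.7% and 99.3% of the summed FPKM of both transporters with Ang II, against 35.4% and 35.1%. Gpi1, Aldoc and Slc16a1 are the 3 genes at an unadjusted p under 0.05, and the statistics of Aldoc and Slc16a1 were chosen for print after that p was seen. When the IL-33 libraries were counted as 2 samples, limma called the same 3 genes lower at the adjusted threshold and 0 of the 26 higher, where 11.8% and 4.96% of all tested genes were called.

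Pyruvate dehydrogenase admits pyruvate to the tricarboxylic acid cycle. Pdhb, its E1 beta subunit gene, was level at 39.3 and 42.4 FPKM with Ang II, against 39.8 and 38.8 FPKM with IL-33 alone. Pdha1, the E1 alpha subunit gene, stood at 72.6 and 30.7 FPKM, against 27.5 and 31.0 FPKM. Dlat, the gene of the E2 acetyltransferase core, was at 14.1 FPKM in the first Ang II library, listed at 0 in the second, and at 8.17 and 8.49 FPKM with IL-33 alone. All 3 subunit genes overlapped between the groups.

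Kinases of the complex were scarce in 3 of the 4 libraries. Pdk1 and Pdk2 stayed at or under 0.39 FPKM in all 4 libraries. Pdk3 (chromosome X, 93764607 to 93832201, minus strand) stood at 0.75 and 20.1 FPKM with Ang II, against 0.05 and 0 FPKM with IL-33 alone. Both Ang II values were above both IL-33 values, and the second Ang II library alone held an appreciable level. Pdk3 passed the filter on the mean only through that library.

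Hif1a, the gene of the oxygen-regulated transcription factor subunit, stood at 82.0 and 162 FPKM with Ang II, on both sides of 147 and 151 FPKM with IL-33 alone. Its protein is controlled mainly by degradation, which transcript levels do not show.

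The Ang II libraries disagreed about many of these genes. Among the 26 tested, 12 (46.2%) differed by more than 1 on the log2 scale between the Ang II libraries, against 55.0% of all tested genes. Between the IL-33 libraries the largest difference in the 26 was 0.35. Of the 24 genes at 1 FPKM or more in both IL-33 libraries, 7 were under 1 FPKM in the first Ang II library, 3 in the second and 2 in both. Over all 6681 such genes the shares were 33.8%, 23.2% and 15.3%.

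**Figure D4:**
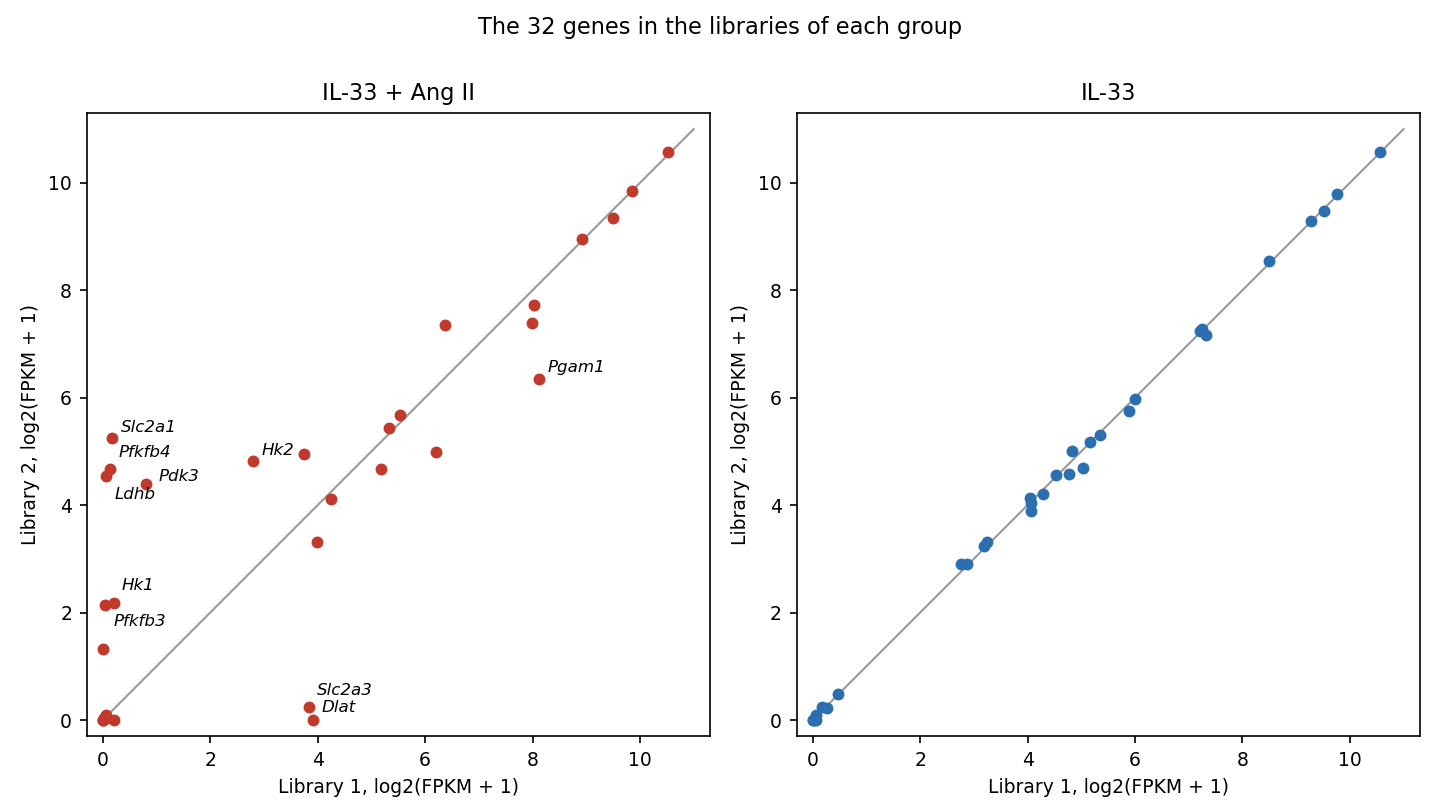
The 32 genes in library 2 (y axis) against library 1 (x axis), both as log2(FPKM + 1), for IL-33 + Ang II on the left and IL-33 on the right, with the line of equal values. Slc2a1, Pfkfb4, Ldhb and Pdk3 lie along the left edge with Ang II and Slc2a3 and Dlat along the bottom, while all genes lie near the line with IL-33 alone.

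Promoters of the pathway are known for hypoxia response elements, whose core holds the letters ACGTG, and for E-boxes with the letters CACGTG, which contain that core and bind Myc and related factors. RefSeq promoter windows of 300 bases on GRCm38.p6 (250 before and 50 after a start) were given for 31 of the 32 genes, 45 windows in all. ACGTG on either strand was present in 22 of the 45 (48.9%), against 19.6% of all 32851 windows, and CACGTG in 6 (13.3%), against 7.15%. Windows of a gene can overlap, and overlapping Aldoa windows hold the same site. Counted by gene, ACGTG was present in 61.3% of the 31, against 21.8% of all genes with a window, and CACGTG in 19.4%, against 8.09%. The windows were not matched for base composition. The 250 bases before a start are shown for 4 genes that differ in their pattern here: Ldha and Pgk1, abundant in all libraries, Slc16a1, near 0 with Ang II, and Pfkl, higher in both Ang II libraries. They run 5′ to 3′ on the strand of the gene, and capitals mark each ACGTG or its reverse complement, CACGTG included. Ldha is shown at the upstream one of its starts (chr7:46845554-46845803, plus strand), Pgk1 at chrX:106186850-106187099 (plus strand), Slc16a1 at chr3:104638414-104638663 (plus strand) and Pfkl at chr10:78009808-78010057 (minus strand). The bases right after the start were found in a GENCODE transcript for Pgk1, Pfkl and the downstream Ldha start. They were not found for the Ldha and Slc16a1 starts shown here. A start placed a few bases away would also fail this check.
Ldha: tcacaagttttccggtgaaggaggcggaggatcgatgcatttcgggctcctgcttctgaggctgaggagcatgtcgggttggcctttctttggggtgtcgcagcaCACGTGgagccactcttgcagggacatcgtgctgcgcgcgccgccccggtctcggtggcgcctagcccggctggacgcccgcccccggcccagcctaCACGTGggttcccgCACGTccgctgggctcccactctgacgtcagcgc
Pgk1: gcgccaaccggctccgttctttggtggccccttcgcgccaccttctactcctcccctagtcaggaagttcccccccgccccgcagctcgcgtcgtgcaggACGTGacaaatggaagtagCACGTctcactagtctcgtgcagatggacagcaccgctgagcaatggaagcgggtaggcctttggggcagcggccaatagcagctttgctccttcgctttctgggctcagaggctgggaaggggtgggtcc
Slc16a1: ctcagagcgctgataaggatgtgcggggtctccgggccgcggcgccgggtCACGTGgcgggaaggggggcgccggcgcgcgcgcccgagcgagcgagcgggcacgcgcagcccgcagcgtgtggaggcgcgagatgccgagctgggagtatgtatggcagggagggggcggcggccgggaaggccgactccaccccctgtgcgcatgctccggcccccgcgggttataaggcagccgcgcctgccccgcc
Pfkl: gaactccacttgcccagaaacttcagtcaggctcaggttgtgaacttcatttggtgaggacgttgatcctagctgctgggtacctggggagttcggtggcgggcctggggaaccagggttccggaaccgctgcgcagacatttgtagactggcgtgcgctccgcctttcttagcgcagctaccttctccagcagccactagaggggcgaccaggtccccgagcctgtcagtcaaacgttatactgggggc
The Ldha stretch holds CACGTG at 2 places and Slc16a1 at 1. The other Ldha window, at its downstream start, holds neither CACGTG nor ACGTG. Ldha was level across the libraries and Slc16a1 was near 0 in both Ang II libraries. Pgk1 holds the shorter core only, and in the Pfkl window of 300 bases these letters do not occur. A match describes the sequence and shows no binding.

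Neighbouring genes of glucose metabolism were described from lists of pathway genes outside the 32, and 0 of the tested genes in each passed the adjusted threshold. The counts of genes above and below both IL-33 values in these lists are to be read against the 24.4% and 33.5% of all tested genes. With 1 Ang II library left out the counts were equal or larger in all 6 lists. A gene then needs only 1 Ang II value outside the IL-33 values, so the counts rise more easily and those shares do not apply. Of 7 tested genes among other glycolytic and transport genes, 1 was higher and 3 were lower with Ang II in both libraries. Their median log2 fold change of -0.18 was unstable. It was -0.53 without the first and -2.98 without the second Ang II library, and -2.54 for genes averaging 5 FPKM or more. Bsg, which encodes basigin, the chaperone of both lactate transporters, stood at 274 and 169 FPKM with Ang II, against 244 and 245 FPKM with IL-33 alone. Txnip, which encodes an inhibitor of glucose uptake, was at 0.24 and 0.05 FPKM, against 35.5 and 35.4 FPKM (unadjusted p = 0.0184, adjusted p = 0.190 by limma). Slc2a6, the gene of the lysosomal transporter GLUT6, was listed at 0 and 0.04 FPKM, against 28.9 and 29.6 FPKM (unadjusted p = 0.0147, adjusted p = 0.174 by limma). The Ang II values of Txnip and Slc2a6 are near 0, so these p-values rest mostly on error borrowed from other genes. Both genes passed the filter on the mean only through the IL-33 libraries.

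Of 8 tested genes of the pyruvate carrier and the rest of the dehydrogenase step, 3 lay above and 2 below both IL-33 values in both Ang II libraries, against 24.4% and 33.5% of all tested genes. Pdha2 counts among the 3 with only 0.01 FPKM in the first Ang II library. It passed the filter on the mean only through the second, at 4.85 FPKM. Among the 4 genes that averaged 5 FPKM or more, 2 lay above and 2 below. Mpc1, a subunit of the mitochondrial pyruvate carrier, stood at 33.4 and 44.7 FPKM with Ang II, against 11.1 and 10.4 FPKM with IL-33 alone (a log2 fold change of 1.76 ± 0.45 SE, limma adjusted p = 0.433). Mpc2, the other subunit, named after its values were seen, stood at 19.4 and 15.0 FPKM, against 4.41 and 4.43 FPKM (a log2 fold change of 1.74 ± 0.55 SE, limma adjusted p = 0.524). Dld, the E3 subunit gene of the complex, was at 24.3 and 6.30 FPKM, against 51.5 and 49.9 FPKM. Both carrier subunits were thus higher in both Ang II libraries while the E3 gene was lower.

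In the pentose phosphate pathway, which branches off at glucose-6-phosphate to make NADPH and ribose, 1 of 7 tested genes was higher and 4 were lower with Ang II in both libraries. All-gene shares were 24.4% and 33.5%. The median log2 fold change of the 7 was -0.68, and -1.11 without the second Ang II library. G6pdx, its rate-limiting enzyme, stood at 24.7 and 46.6 FPKM with Ang II, against 89.8 and 86.7 FPKM with IL-33 alone, and Taldo1, the transaldolase gene, at 102 and 198 FPKM, against 230 and 228 FPKM. Prps1, which makes the activated ribose for nucleotides, stood at 84.8 and 27.7 FPKM, against 0.15 and 0 FPKM (unadjusted p = 0.0466, adjusted p = 0.357 by limma). With IL-33 values near 0, Prps1 passed the filter on the mean only through the Ang II libraries and could only come out higher. Of 19 tested genes of the tricarboxylic acid cycle, 8 were higher and 5 lower. Among the 17 that averaged 5 FPKM or more, 6 were higher and 5 lower. Aco1 and Dlst count among the 8 with only 0.06 FPKM in 1 Ang II library each. The median log2 fold change of the 19 was 0.21, against 0.02 without the second Ang II library, where 9 lay above and 8 below the IL-33 values. The malate dehydrogenase genes Mdh1 (280 and 383 FPKM, against 280 and 273 FPKM) and Mdh2 (226 and 242 FPKM, against 210 and 208 FPKM) were the most abundant of the cycle.

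Genes of the hypoxia-inducible factor machinery and its targets outside the 32 numbered 18 tested genes, 8 of them above and 1 below both IL-33 values, where 24.4% and 33.5% of all tested genes were. These counts were the same under each scaling tried, and the median log2 fold change was 0.95. Of the 8, Bnip3, P4ha2, Egln1 and Vegfa were at or under 0.04 FPKM with IL-33 alone. They passed the filter on the mean only through the Ang II libraries. Bnip3 counts as above with only 0.09 FPKM in the first Ang II library, and Egln1 with 0.89 FPKM in the second. Without the first Ang II library 11 genes lay above and 4 below, and without the second 11 and 2. With 1 Ang II value left such counts rise more easily, and no matching share of all tested genes is given. The list summed to 3082 and 2881 FPKM with Ang II, against 1936 and 1907 FPKM with IL-33 alone. Most of that sum came from Hilpda, which encodes a lipid droplet protein induced by hypoxia, at 2194 and 1940 FPKM, against 1302 and 1274 FPKM (a log2 fold change of 0.68 ± 0.16 SE, limma adjusted p = 0.396). Ero1l, the gene of an ER oxidase, stood at 579 and 580 FPKM, against 487 and 484 FPKM (a log2 fold change of 0.26 ± 0.14 SE, limma adjusted p = 0.775).

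Of 10 tested regulators of glycolytic genes, 1 was higher and 3 were lower with Ang II in both libraries, where 24.4% and 33.5% of all tested genes were. Myc, which encodes a factor that drives glycolytic genes in activated lymphocytes, stood at 22.8 and 34.5 FPKM with Ang II, against 0.07 and 0 FPKM with IL-33 alone (unadjusted p = 0.0242, adjusted p = 0.228 by limma). With IL-33 values near 0, Myc passed the filter on the mean only through the Ang II libraries and could only come out higher. Mlx, the gene of the partner of the glucose sensors MondoA and ChREBP, stood at 24.9 and 29.2 FPKM, against 83.5 and 86.1 FPKM (a log2 fold change of -1.62 ± 0.34 SE, with a limma p of 0.0493 unadjusted and 0.365 adjusted).

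**Figure D5:**
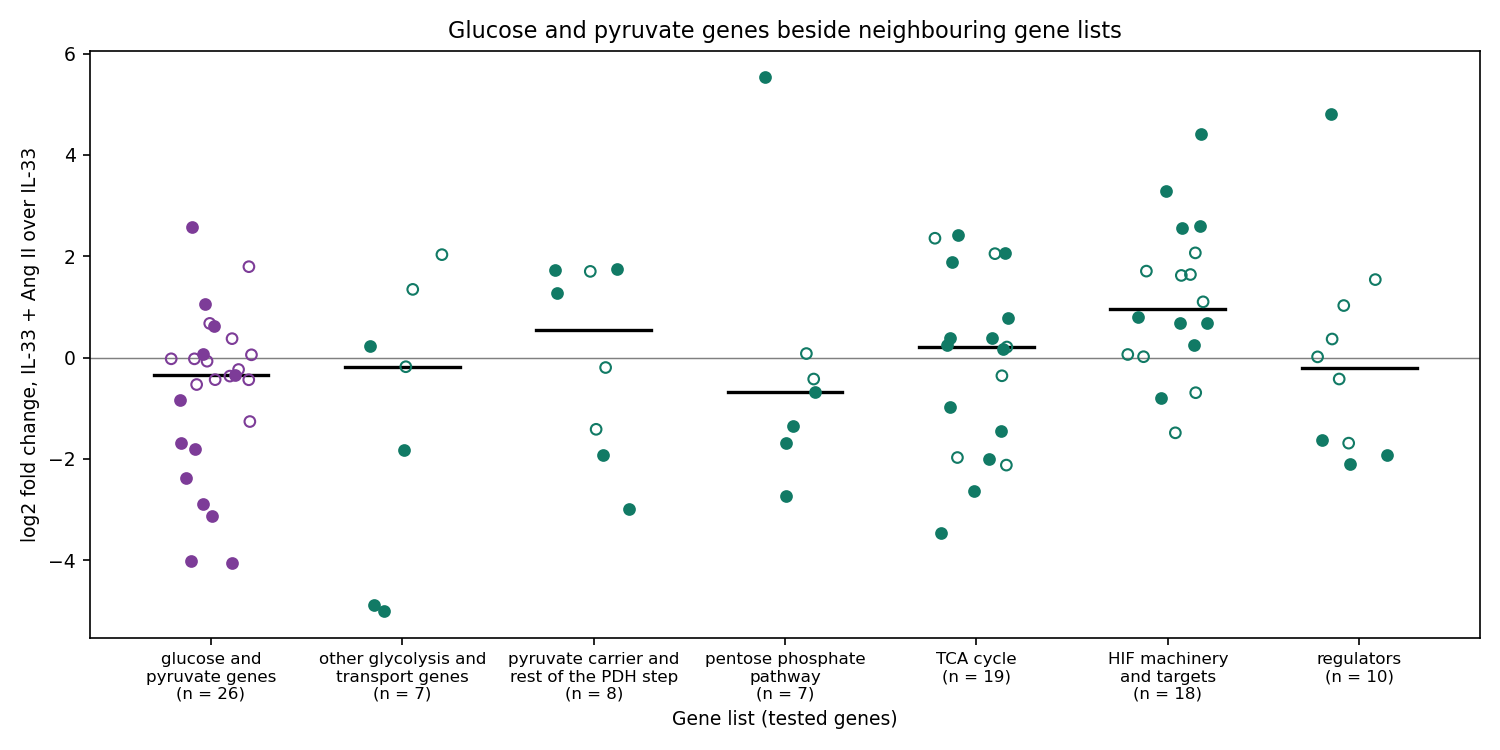
Log2 fold change of IL-33 + Ang II over IL-33 for each tested gene (y axis) in the glucose and pyruvate genes (purple) and 6 neighbouring lists (green), with the median of each list as a black line. Filled points are genes whose groups do not overlap and open points those that do. The line lies at -0.35 for the glucose and pyruvate genes and at 0.95 for the hypoxia-inducible factor list.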

How the data were processed

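RNA-seq of lung ILC2s was deposited as FPKM for each gene and library with 2 decimals, per the file headers. HISAT, StringTie, edgeR and mm10 are named in the submitters' processing notes. Versions and annotation: not given in the sources used here. Per the labels' protocols, cDNA of 500 cells was amplified by PCR, which can lose or multiply a transcript in 1 library. Both Ang II columns come from a single table. Depth is unknown. IL-33 libraries were averaged and counted as 1 sample because they differed by about the estimated counting noise. Genes averaging 1 FPKM or more across these 3 samples were tested on log2(FPKM + 1), which understates changes of low genes, with limma 3.58.1 in R 4.3.3 (mean-variance trend, two-sided, Benjamini-Hochberg, threshold 0.05). The fit has 1 residual degree of freedom. Coordinates come from GENCODE (GRCm38), with 55141 identifiers matched. Copies were found with BLAST 2.17.0 (at least 200 aligned bases). Alternatives changed the pseudocount, filter, scaling, block and libraries. Members and lists were chosen with earlier results of these data known. All members may be named. Values are given for members with at least 5 FPKM in a group, statistics for those at 20 FPKM or more without overlap, and from other lists the 2 most abundant genes and up to 3 at an unadjusted p under 0.05. One abundant regulator is not reported here.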

Additional observations from a re-analysis of the deposited data

How the results depend on the processing

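Of 10 pathway genes with printed test statistics, 149 of 150 alternative values kept their direction over 15 alternatives, and Ldha alone among them turned, to a log2 fold change of -0.0045 after quantile normalization. None of these genes overlapped between the groups. Only the alternatives that rescale the libraries could therefore turn a direction, and the count is no measure of robustness. No gene passed the adjusted threshold under any tested alternative but one: with the IL-33 libraries counted as 2 samples, limma called 1547 genes (457 higher, 1090 lower), among them 3 of the 26 genes, Gpi1, Aldoc and Slc16a1. With these libraries averaged, 1253 genes had an unadjusted p under 0.05. With the replicate number as a block, 0 genes passed and 1835 had an unadjusted p under 0.05. The replicate numbers do not pair the samples by the labels, and same-numbered libraries deviated with a correlation of -0.02 across genes. The median log2 fold change of the 26 genes was -0.24 without a filter, -0.20 after quantile normalization, which moved the median of all genes to 0.10, and between -0.35 and -0.13 when single libraries were left out. Without the first Ang II library it was -0.13 and without the second -0.35, over 25 genes each, because Slc2a3 or Pdk3 then falls under the filter. Over all 26 genes the same comparisons give -0.07 and -0.20. With single libraries left out, genes above every IL-33 value that was kept numbered 6 to 9 and those below 10 to 14. With fewer values to compare such counts rise more easily, and no matching share of all tested genes is given. No test is possible for a single Ang II library, where no residual degrees of freedom remain. Every rescaling of the libraries moved the main counts of 4 genes above and 9 below. Upper-quartile scaling and quantile normalization each gave 6 above and 10 below, and scaling to the same sum gave 6 and 8. Scaling without haemoglobin genes, chosen after seeing the data, also gave 6 genes above and 10 below. For these counts too, no matching share of all tested genes is given.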
